A study of Mus musculus with 4 samples.

Results

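The genes described here are the heat shock proteins and their DnaJ co-chaperones, in mouse prefrontal cortex after repeated social threat and in controls. They were chosen by symbol: every probe set of the array annotated to a single gene whose name starts with Hspa, Hspb and a digit, Hspd1, Hspe1, Hsph1, Hsp90, Dnaja, Dnajb or Dnajc. That gave 169 probe sets of 70 genes, out of 18193 genes with a single symbol on the array, and each gene was represented by the brightest of its probe sets over the 4 arrays. By family there were 13 Hsp70 genes (Hspa), 1 Hsp110 gene (Hsph1), 2 Hsp90 genes, 2 chaperonin genes (Hspd1, Hspe1), 8 small heat shock protein genes (Hspb), 4 Dnaja, 13 Dnajb and 27 Dnajc genes. The threat group (environment HighThreat) and the control group (LowThreat) each held 2 pools, and a pool was the RNA of 5 mice on 1 Affymetrix MOE430 2.0 array. The sources used here name no strain, sex or age. Each pool averages its animals, and differences between single mice cannot be seen. Values are log2 expression, so a difference of 1 is a doubling.

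Chaperones of these families keep proteins folded. Hsp70 proteins grip exposed stretches of unfolded chains in a cycle driven by ATP: a DnaJ protein delivers the client and starts ATP hydrolysis through its J domain, and exchange factors such as Hsp110 release the nucleotide. Hsp90 acts on nearly folded clients, among them kinases and the glucocorticoid receptor, while small heat shock proteins hold unfolding proteins without ATP. Many cytosolic members are induced by heat shock factor 1 after heat or other protein damage, and those of the endoplasmic reticulum by the unfolded protein response. In neurons, DnaJ proteins also serve the synapse, where cysteine string protein (Dnajc5) guards vesicle fusion and auxilin (Dnajc6) helps Hsp70 strip clathrin from vesicles.

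Correlations between arrays over 45037 probe sets lay between 0.9942 and 0.9961. Threat was tested against control with limma, and the smallest adjusted p of all probe sets was 0.278 (Benjamini-Hochberg). An unadjusted p under 0.05 was found for 4774 probe sets, which is 10.6%. As a guide to background, probe sets for Bacillus transcripts, which match no mouse RNA, reached 4.25. All 7 measured markers of excitatory neurons lay above that value, with a mean level of 10.75 and 10.80 in the threat pools and 10.74 and 10.92 in the control pools. Their directions differed: Slc17a7 (0.23) and Nrgn (0.08) had both threat pools higher, and Tbr1 (-0.53) and Neurod6 (-0.39) both lower. Of 7 interneuron markers, Gad1 (-0.42) and Gad2 (-0.28) had both threat pools lower and none had both higher. Among all genes, 18.8% had both threat pools lower and 26.2% both higher. In bulk tissue, fewer cells of a type and less RNA per cell cannot be told apart.

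As a whole, the 70 genes showed no common shift. Their median log2 difference, threat minus control, was 0.03, against 0.02 over all genes, and 53 of the 70 differed by less than 0.2. The smallest adjusted p among them was 0.415, so none passed 0.05, and the share of all genes that passed was 0%. At an unadjusted p under 0.05, 1 gene was higher and 6 were lower in threat, where 4.9% of all genes were higher and 5.76% lower. Both threat pools lay above both control pools in 21 genes and below them in 13, where the shares over all genes were 26.2% and 18.8%. With cyclic loess between arrays these counts were 16 and 15. The 6 lower genes make up 8.57% of the members. Most members are well expressed, with 58 of the 70 above the median level of all probe sets. Among genes above that level, 33.1% had both threat pools higher and 15.5% both lower, and at the unadjusted p 6.25% were higher and 5.27% lower. A difference of at least 1.5-fold with pools apart was reached by 1 gene, lower in threat, against 0.715% of all genes lower and 0.066% higher. Medians by family were -0.01 for Hsp70, 0.10 for the single Hsp110 gene, -0.22 for Hsp90, -0.02 for the chaperonins, -0.03 for the small heat shock proteins, 0.04 for Dnaja, 0.02 for Dnajb and 0.07 for Dnajc. With cyclic loess the medians of Dnaja and Dnajb were just below 0, and with median centring those of Hsp70 and the chaperonins just above it. The Hsp90 median rests on 2 genes that differ from each other.

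**Figure D1:**
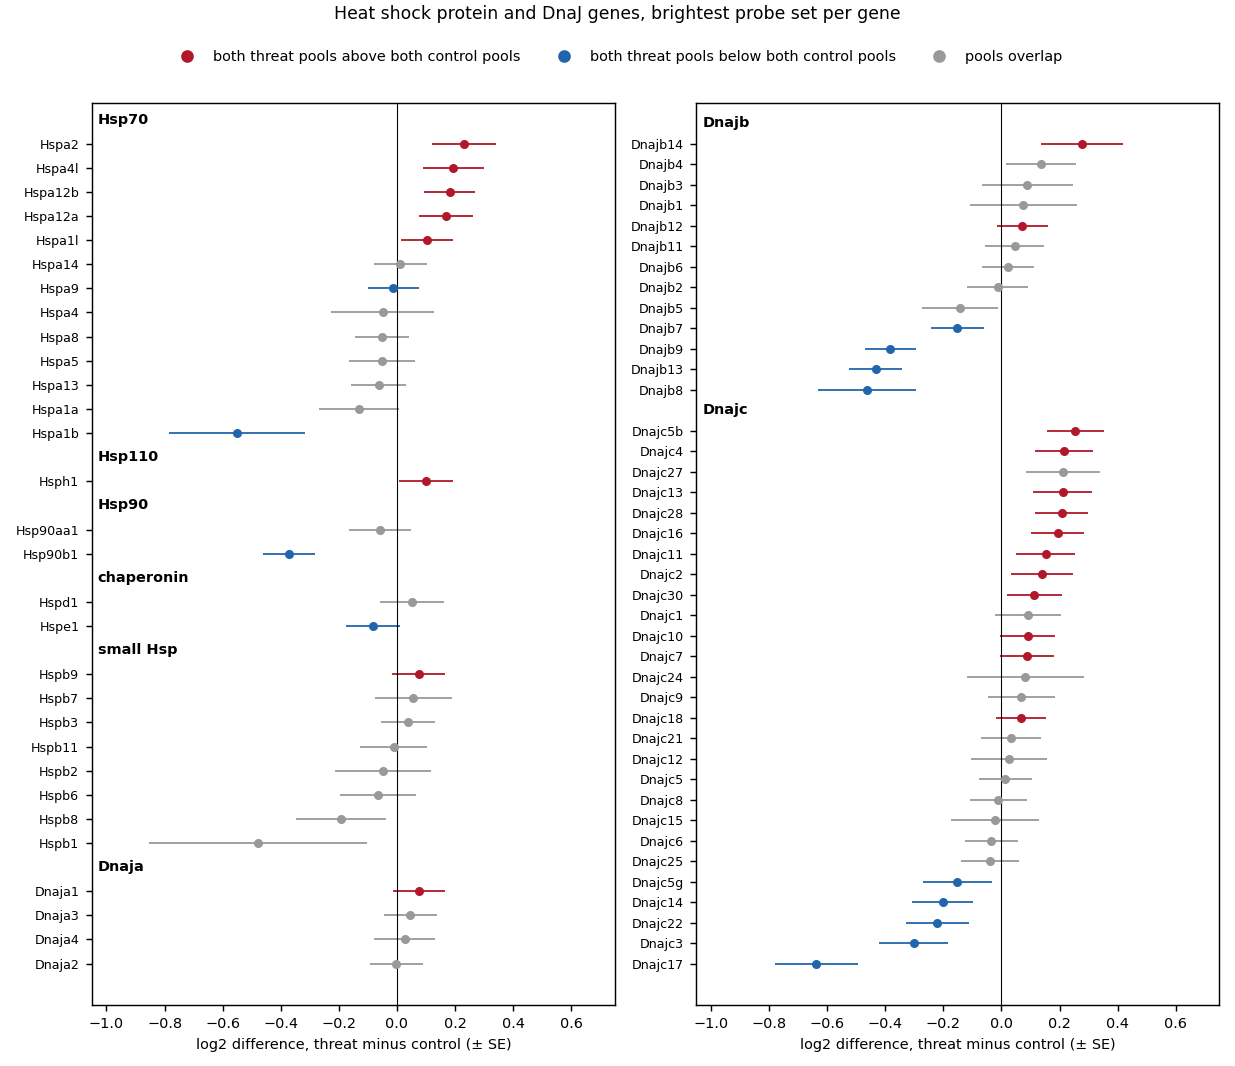
Log2 difference, threat minus control, of all 70 genes by family. Points are the difference of the 2 threat and 2 control pools and bars its standard error. Red marks both threat pools above both control pools, blue both below and grey overlapping pools. Most points lie within 0.2 of 0, and the points farthest to the left are Dnajc17, Hspa1b, Hspb1, Dnajb8, Dnajb13, Dnajb9 and Hsp90b1.

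Among the chaperones of the endoplasmic reticulum, Dnajb9, Hsp90b1 and Dnajc3 lay lower in both threat pools at an unadjusted p under 0.05, and the probe sets of Hspa5 did not agree. Dnajb9 (ERdj4), a J protein that brings the Hsp70 of this compartment to misfolded chains, measured 10.49 and 10.52 in the threat pools, against 10.89 and 10.88 in the control pools. The 2 pools of each group nearly coincided, and the groups stood apart by -0.38 ± 0.09 (SE), or 1.30-fold (adjusted p = 0.423 in limma's test). Hsp90b1 (Grp94), the Hsp90 of the endoplasmic reticulum, measured 11.37 and 11.42 in threat and 11.75 and 11.78 in control. Its difference was -0.37 ± 0.09 (SE), or 1.29-fold (adjusted p = 0.427). A second probe set of Hsp90b1 also had both threat pools lower, at 10.72 and 10.94 against 10.95 and 10.98, with a difference of -0.13. Leaving out any 1 pool kept the log2 difference between -0.39 and -0.37 for Dnajb9 and between -0.40 and -0.35 for Hsp90b1, each time at an unadjusted p under 0.05.

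Dnajc3 (p58IPK), a J protein of the endoplasmic reticulum lumen, measured 8.35 and 8.57 in threat and 8.68 and 8.84 in control, a difference of -0.30 ± 0.12 (SE, adjusted p = 0.469). Its unadjusted p was no longer under 0.05 without threat pool 1 (-0.19), control pool 1 (-0.38) or control pool 2 (-0.22). Of its 4 other probe sets, 3 had overlapping pools, with differences of 0.02, -0.05 and -0.17. Hspa5 (BiP), the Hsp70 of this compartment, measured 11.77 and 11.99 in threat and 11.99 and 11.88 in control by its brightest probe set, which overlap. Its 2 dimmer probe sets had both threat pools lower, with differences of -0.19 ± 0.11 and -0.52 ± 0.12 (SE), and with the mean of its 3 probe sets the difference was -0.25, at an unadjusted p under 0.05.

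The list used for this compartment held 10 genes, and its remaining members lay near 0 or higher. Dnajc14, described further below, was not on the list. It had both threat pools lower by its brightest probe set (-0.20), with another probe set at 0.20. Dnajb14, a membrane-bound J protein, measured 9.59 and 9.63 in threat and 9.15 and 9.52 in control (0.28 ± 0.14, adjusted p = 0.520), and without control pool 1 its difference was 0.09. Its second probe set was at 0.01 with overlapping pools. Dnajc10 (ERdj5), a disulfide reductase with a J domain, was at 0.09, with the threat pools higher in all 3 of its probe sets. Dnajb12 was at 0.07 with separate pools, and Dnajb11 (0.05), Dnajc1 (0.09) and Hspa13 (-0.06) had overlapping pools by their brightest probe sets. A dimmer probe set of Dnajc1 measured 5.72 and 5.85 in threat and 5.41 and 5.3985 in control, a difference of 0.38 ± 0.10 (SE) at an unadjusted p under 0.05 (adjusted p = 0.427). Over the 10 listed genes, 3 (30%) were lower and none higher at an unadjusted p under 0.05 by the brightest probe set. The shares over all genes were 5.76% lower and 4.9% higher, and the list was chosen with earlier results of these data known. The median of the 10 genes was -0.004.

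**Figure D2:**
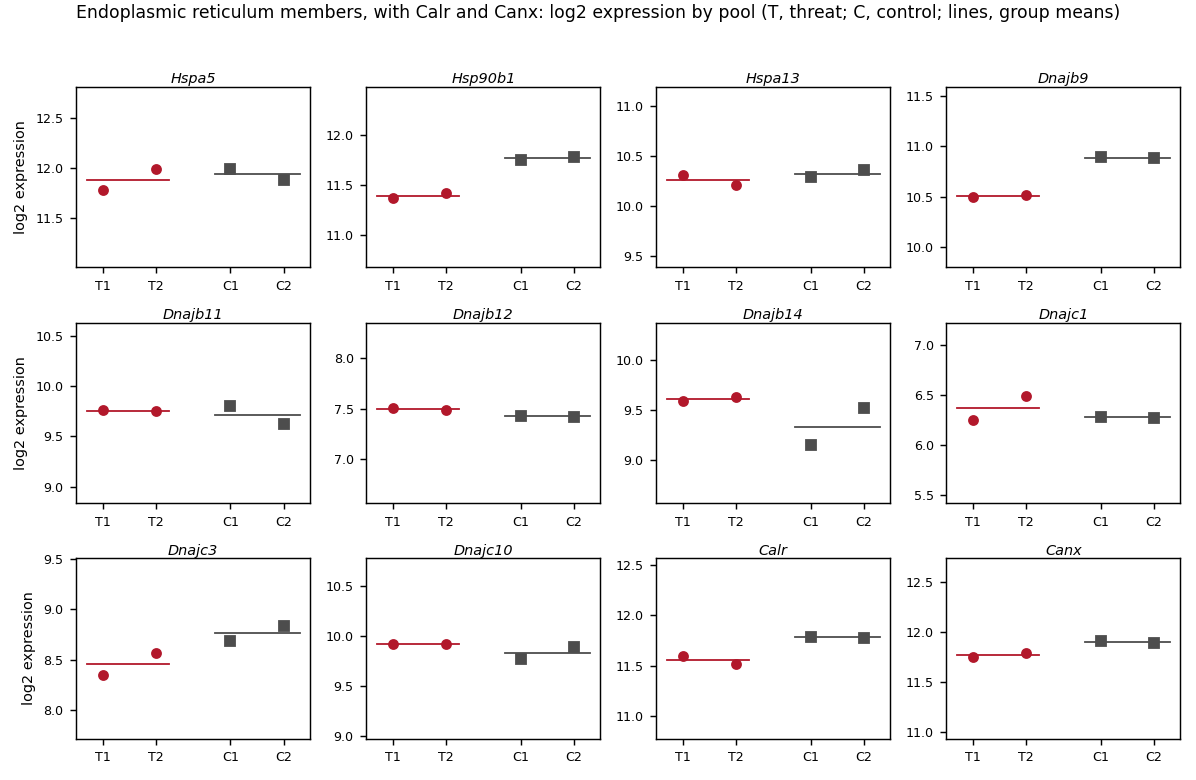
Log2 expression of the 10 listed members of the endoplasmic reticulum, with the lectin chaperones Calr and Canx. Shown are threat pools 1 and 2 (T1, T2) and control pools 1 and 2 (C1, C2). Lines are group means, and every panel spans the same range of 1.8 log2 units. Dnajb9, Hsp90b1, Calr and Canx show lower threat pools with the pools of a group close together, and both threat pools of Dnajc3 are lower too. In Dnajb12, Dnajb14 and Dnajc10 both threat pools are higher, while the pools of Hspa5 overlap. Calr and Canx come from 17 related genes, of which 5 had both threat pools lower and 2 both higher. The higher ones, Ern1 and Atf4, are not shown.

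The 3 promoters shown next carry the element by which the unfolded protein response is known to switch on chaperones of the endoplasmic reticulum, the ER stress element. It was searched as CCAAT, 9 free bases and CCACG, on both strands of the window from 250 bases before to 50 bases after each start site (RefSeq, GRCm38.p6), which was at hand for 57 of the 70 genes. The element was found in 0.119% of all 32851 windows. Among the 9 listed members of this compartment with a window, it was found in Hspa5, Hsp90b1 and Dnajc3. Capitals mark the matches, which begin 65 bases before the start in Hspa5, 212 and 107 bases before it in Hsp90b1 (that at 107 on the opposite strand) and 105 bases before it in Dnajc3. Of 15 related folding genes outside the families with a window, 4 held it, namely Calr, Canx, Creld2 and Pdia6. Calr and Canx had both threat pools lower, while Creld2 (0.002) and Pdia6 (0.003) had overlapping pools. The window of Dnajb9 held no match. A match is a description of the letters, and binding was not measured. The windows are chr2:34771840-34772139 (plus strand) for Hspa5, chr10:86705395-86705694 (minus strand) for Hsp90b1 and chr14:118937682-118937981 (plus strand) for Dnajc3, each written 5′ to 3′ along the gene.
Hspa5: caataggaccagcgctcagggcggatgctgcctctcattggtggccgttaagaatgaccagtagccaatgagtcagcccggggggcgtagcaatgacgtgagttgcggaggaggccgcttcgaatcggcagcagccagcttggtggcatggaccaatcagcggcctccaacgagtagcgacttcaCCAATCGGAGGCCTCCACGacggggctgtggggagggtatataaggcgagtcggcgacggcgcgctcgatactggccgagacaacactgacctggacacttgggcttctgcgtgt
Hsp90b1: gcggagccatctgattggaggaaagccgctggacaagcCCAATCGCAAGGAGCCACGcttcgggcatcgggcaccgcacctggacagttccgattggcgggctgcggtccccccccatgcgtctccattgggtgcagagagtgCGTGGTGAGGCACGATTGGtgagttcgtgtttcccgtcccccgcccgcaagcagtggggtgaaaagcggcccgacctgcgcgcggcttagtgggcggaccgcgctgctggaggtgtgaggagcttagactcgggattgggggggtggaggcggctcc
Dnajc3: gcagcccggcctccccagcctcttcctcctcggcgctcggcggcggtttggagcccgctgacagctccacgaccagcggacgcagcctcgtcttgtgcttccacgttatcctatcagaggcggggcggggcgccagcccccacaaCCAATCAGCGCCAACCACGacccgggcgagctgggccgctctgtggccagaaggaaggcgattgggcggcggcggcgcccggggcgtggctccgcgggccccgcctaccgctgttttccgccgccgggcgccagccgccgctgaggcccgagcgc

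Outside the families, 17 genes of protein folding and the unfolded protein response in the same compartment were measured. None was past an unadjusted p of 0.05 in either direction, and the median was -0.04. Both threat pools were lower in 5 (29.4%) and higher in 2 (11.8%), where the shares over all genes were 18.8% and 26.2%. The lectin chaperone Calr, calreticulin, measured 11.60 and 11.52 in threat and 11.79 and 11.77 in control (-0.22 ± 0.09, SE). Its membrane-bound relative Canx differed by -0.13, and the disulfide isomerase Pdia4 by -0.22. Higher with separate pools were Ern1 (IRE1), a sensor of the response, at 0.24, and the transcription factor Atf4 at 0.08.

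The heat-inducible chaperones of the cytosol and mitochondria showed no common shift in threat. Of 11 measured genes on this list, none passed an unadjusted p of 0.05, where 4.9% of all genes were higher and 5.76% lower. Both threat pools were higher in 3 (27.3%) and lower in 2 (18.2%), near the shares over all genes of 26.2% and 18.8%. The median was -0.05. Hspa1b, the stress-inducible Hsp70, had the largest difference of the list. It measured 8.49 and 9.07 in threat and 9.11 and 9.54 in control, so that threat pool 2 was just below control pool 1. The difference was -0.55 ± 0.23 (SE), or 1.47-fold (adjusted p = 0.482), and it was -0.26 without threat pool 1, -0.84 without threat pool 2, -0.77 without control pool 1 and -0.34 without control pool 2. Its unadjusted p was under 0.05 without threat pool 2 and with cyclic loess (-0.62). Its 2 other probe sets had overlapping pools, with differences of -0.15 and -0.33. The neighbouring copy Hspa1a encodes a nearly identical protein, so probes may read both genes, and its probe set measured 7.77 and 8.01 in threat and 7.89 and 8.15 in control (-0.13 ± 0.14).

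Hspb1 (Hsp27), a small heat shock protein that is prominent in blood vessels and reactive glia, spread most between the pools of a group. It measured 8.21 and 8.82 in threat and 8.47 and 9.52 in control, a difference of -0.48 ± 0.37 (SE, adjusted p = 0.648) with overlapping pools. Its second probe set had the same order of pools, at 7.18 and 8.24 in threat and 7.81 and 8.84 in control. Without control pool 2 the difference of the brightest probe set was 0.05, and without control pool 1 it was -1.005, at an unadjusted p under 0.05. Dnajb1 (Hsp40), the heat-inducible partner of Hsp70, measured 11.08 and 11.48 in threat and 11.03 and 11.39 in control, so that the gap within each group was larger than the difference between them (0.07 ± 0.18).

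**Figure D3:**
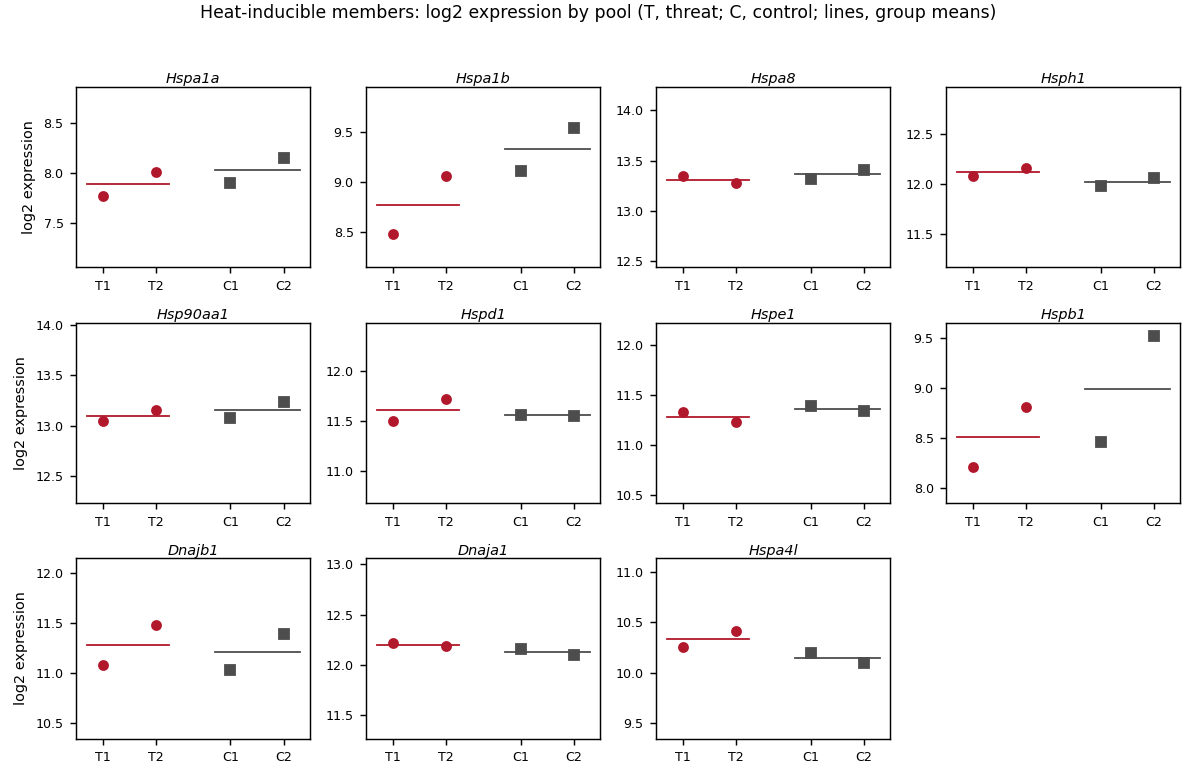
Log2 expression of the 11 measured heat-inducible genes in threat pools 1 and 2 (T1, T2) and control pools 1 and 2 (C1, C2), with group means as lines and the same span of 1.8 log2 units in every panel. In Hspa1a, Hspa1b, Hspb1 and Dnajb1, pool 2 lies above pool 1 in both groups.

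In 6 of the 11 heat-inducible genes, pool 2 was higher than pool 1 in both groups, against 23.5% of all genes, and in 2 it was lower in both, against 36.2%. The gap between pools 2 and 1 was 0.60 in threat and 1.05 in control for Hspb1, 0.58 and 0.43 for Hspa1b, 0.40 and 0.36 for Dnajb1, and 0.24 and 0.26 for Hspa1a. It was smaller for Hsp90aa1 (0.11 and 0.16) and Hsph1 (0.08 and 0.08). The labels do not say what the pool number stands for. Markers of blood vessels were also uneven between the pools. The 9 smooth muscle genes averaged 6.64 and 6.96 in the threat pools and 7.45 and 8.28 in the control pools, and all 9 had both threat pools lower. The 7 measured endothelial genes averaged 6.56 and 6.99 in the threat pools and 6.93 and 7.40 in the control pools. That is the same order of pools as for Hspb1. Of the 7, 4 had both threat pools lower, where the share over all genes was 18.8%. No marker of either list lay at or below the Bacillus value in all pools. The 9 astrocyte genes averaged 10.23 and 10.46 in the threat pools and 10.54 and 10.59 in the control pools. Pool 2 was above pool 1 in both groups in 6 of them, and 4 had both threat pools lower. The part of vessel and astrocyte content in the values of Hspb1 and Hspa1b was not tested.

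**Figure D4:**
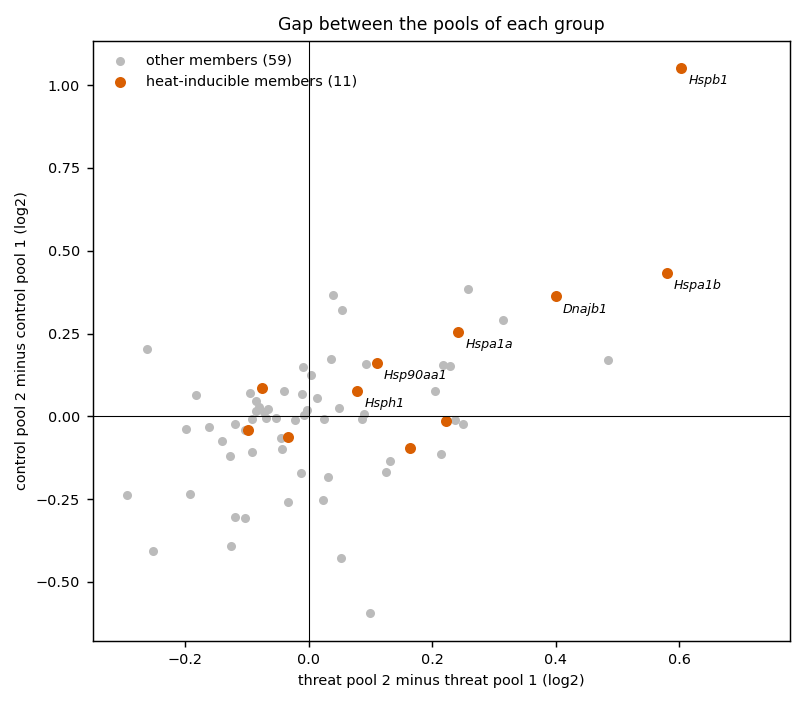
Gap between the pools of each group, with threat pool 2 minus threat pool 1 on the horizontal axis and control pool 2 minus control pool 1 on the vertical axis (log2), for the 11 heat-inducible genes (orange) and the other members (grey). Hspb1, Hspa1b, Dnajb1 and Hspa1a lie in the upper right, where pool 2 is higher in both groups.

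Of the other genes of the list, Dnaja1 is described with the probe sets that disagree, since 1 of its 3 differed by -0.83. Hsp90aa1, the inducible cytosolic Hsp90, measured 13.04 and 13.15 in threat and 13.08 and 13.24 in control (-0.06 ± 0.11, SE), and Hspa8 (Hsc70), the constitutive Hsp70 of the cytosol, 13.35 and 13.27 in threat and 13.32 and 13.40 in control (-0.05 ± 0.09). Both overlapped by these probe sets, while 2 of the 4 probe sets of Hspa8 and 3 of the 5 of Hsp90aa1 had both threat pools lower. The largest of these differences above the Bacillus value in all pools were -0.16 for Hspa8 and -0.17 for Hsp90aa1. Hsph1 (Hsp105), the nucleotide exchange factor of Hsp70, had both threat pools slightly higher, at 12.08 and 12.16 against 11.98 and 12.06 (0.10 ± 0.09), and the difference was 0.06 without threat pool 2 or control pool 1. Hspa4l (Apg-1), an Hsp110 relative, measured 10.26 and 10.42 in threat and 10.19 and 10.10 in control, a difference of 0.19 ± 0.10 (adjusted p = 0.532). The threat pools were higher in 4 of its 5 probe sets, with differences between 0.19 and 0.23. Without threat pool 2 the difference of the brightest was 0.11. Its relative Hspa4 was at -0.05 with overlapping pools by its brightest probe set, while the next 2 were at 0.36 with overlapping pools and at 0.26 with both threat pools higher.

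Over all 13 Hsp70 genes, 5 (38.5%) had both threat pools higher and 2 (15.4%) both lower, where the shares over all genes were 26.2% and 18.8%. Of the Hsp70 genes not described above, 3 with signal above the Bacillus value had both threat pools higher. Hspa2, an Hsp70 first known from testis, measured 9.05 and 9.26 in threat and 8.89 and 8.96 in control (0.23 ± 0.11). The difference was 0.13 without threat pool 2, and without threat pool 1 it was 0.33 and at an unadjusted p under 0.05. Hspa12a, a distant Hsp70 relative, was at 0.17 ± 0.09 by its brightest probe set, and its relative Hspa12b at 0.18 ± 0.09. The other probe sets of Hspa12a had overlapping pools, at 0.09, 0.11 and -0.10. Adjusted p for the 3 genes was 0.503 to 0.537. Hspa9 (mortalin), the mitochondrial Hsp70, measured 10.32 in both threat pools and 10.32 and 10.34 in control, and Hspa14, which binds the ribosome, was at 0.01.

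The chaperonin genes Hspd1 (Hsp60) and Hspe1 (Hsp10), which form the folding chamber of the mitochondrial matrix, lie head to head and share a promoter. Hspd1 measured 11.49 and 11.72 in threat and 11.56 and 11.55 in control (0.05 ± 0.11). Hspe1 measured 11.33 and 11.23 in threat and 11.38 and 11.34 in control (-0.08 ± 0.09). The promoter is shown because it carries the heat shock element, the site of heat shock factors, searched as GAA, 2 free bases, TTC, 2 free bases and GAA, on both strands. The element was found in 0.603% of all windows and in 6 of the 74 windows of members (8.11%). These windows belong to 4 of the 57 members with a window, namely Hspd1, Hspe1, Hsph1 and Dnajb6, and Hspd1 and Hspe1 hold the same bases. Of the 9 heat-inducible genes with a window, 3 held the element. The windows of Hspa1a, Hspa1b, Hspb1 and Dnajb1 held no match to these exact letters, and looser forms of the element were not searched. In the Hspe1 window (chr1:55087898-55088197, plus strand) a match on each strand overlaps the other, from 89 bases before the start, and capitals mark both.
Hspe1: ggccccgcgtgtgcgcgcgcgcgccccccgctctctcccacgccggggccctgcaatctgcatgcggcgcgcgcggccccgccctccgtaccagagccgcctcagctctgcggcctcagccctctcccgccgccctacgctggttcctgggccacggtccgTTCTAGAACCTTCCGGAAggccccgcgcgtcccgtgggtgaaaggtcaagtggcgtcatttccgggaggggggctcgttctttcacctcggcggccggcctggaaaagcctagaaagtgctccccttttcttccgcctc

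With all 4 pools and no other setting changed, none of the 8 small heat shock protein genes passed an unadjusted p of 0.05, and Hspb1 did without control pool 1. Hspb8 (Hsp22), which works with Bag3 in selective autophagy, measured 7.45 and 7.76 in threat and 7.65 and 7.94 in control (-0.19), with pool 2 higher in both groups. The muscle-enriched Hspb2, Hspb3, Hspb6 and Hspb7 lay between -0.07 and 0.06, and Hspb11, a subunit of ciliary transport, at -0.01, all with overlapping pools. Outside the naming rule, the related crystallin Cryab, a small heat shock protein of oligodendrocytes and muscle, was lower in both threat pools, at 9.52 and 9.57 against 10.50 and 10.16. The difference of -0.78 ± 0.14 (SE), or 1.72-fold (adjusted p = 0.413), exceeded that of every member by its brightest probe set. All 12 measured myelin genes had both threat pools lower as well, against 18.8% of all genes. Their mean level was 8.61 and 8.78 in the threat pools and 9.88 and 9.40 in the control pools. None of the 12 lay at or below the Bacillus value in all pools. The part of oligodendrocyte content in the values of Cryab, Dnajb9, Hsp90b1 and Dnajc3 was not tested.

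The 44 DnaJ genes, the J-domain partners of Hsp70, had a median of 0.05, with 14 higher (31.8%) and 9 lower (20.5%) by separate pools, where 26.2% and 18.8% of all genes and 33.1% and 15.5% of genes above the median level did so. Dnaja genes are the closest relatives of the bacterial protein, and only Dnaja1 had separate pools by its brightest probe set. Dnaja2, a major partner of Hsc70, measured 12.03 and 11.98 in threat and 12.04 and 11.97 in control. Among Dnajb genes, Dnajb6, a suppressor of polyglutamine aggregation, measured 12.002 and 12.016 in threat and 11.96 and 12.01 in control.

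The Dnajc family, whose members share little beyond the J domain, held 11 of 27 genes with both threat pools higher (40.7%) and 5 with both lower (18.5%), and its count was not tested against those shares. Dnajc13 (RME-8), a J protein of endosomes, measured 9.28 and 9.31 in threat and 8.997 and 9.17 in control (0.21 ± 0.10, SE). Dnajc4 (0.21), Dnajc28 (0.21) and Dnajc16 (0.19) were of the same size with separate pools, and the second probe set of Dnajc16 was at 0.31 ± 0.11. The dimmer second probe sets of Dnajc13 (0.03) and Dnajc28 (0.07) had overlapping pools. Adjusted p for the 4 genes was 0.487 to 0.509. The difference was 0.12 for Dnajc13 without control pool 1 and 0.13 for Dnajc4 without threat pool 1. The synaptic members had overlapping pools by their brightest probe sets. Dnajc5 measured 11.24 and 11.17 in threat and 11.18 and 11.20 in control, and Dnajc6 measured 12.01 and 11.93 in threat and 11.99 and 12.02 in control. Of the 4 other probe sets of Dnajc5, 3 had both threat pools higher, with differences between 0.20 and 0.25.

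Members of mitochondria, the ribosome and the nucleus lay near 0, apart from Dnajc17. Of the 7 measured mitochondrial members none was past an unadjusted p of 0.05, with a median of 0.05 and Dnajc11, which joins the inner and outer membranes, highest at 0.15 (0.09 without threat pool 1 or control pool 2). The splicing factor partner Dnajc8 measured 11.68 and 11.58 in threat and 11.69 and 11.59 in control. Of Dnajc genes outside these groups, Dnajc14, an escort of receptors from the endoplasmic reticulum, was lower with separate pools at -0.20. Dnajc22 was too, at -0.22, with 5.86 and 5.99 in threat and 6.23 and 6.06 in control. The difference was -0.11 for Dnajc14 without threat pool 2 and -0.14 for Dnajc22 without control pool 1.

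Several of the differences depended on which probe set read the gene. Dnajc17, a nuclear J protein, was the single member at least 1.5-fold apart. By its brightest probe set it measured 7.46 and 7.16 in threat and 8.06 and 7.83 in control (-0.64 ± 0.14, SE, adjusted p = 0.423). A second probe set went the other way, with 7.03 and 6.83 in threat and 6.63 and 6.54 in control (0.35 ± 0.11, adjusted p = 0.439), and over all 3 probe sets the mean difference was -0.16. Dnaja1, a heat-inducible partner of Hsc70, measured 12.22 and 12.18 in threat and 12.16 and 12.09 in control by its brightest probe set (0.07 ± 0.09). Its second probe set was at -0.03, while its _s_at probe set measured 10.20 and 10.14 in threat and 10.99 and 11.00 in control. That difference of -0.83 ± 0.09, or 1.78-fold (adjusted p = 0.320), was larger than any other among the 169 probe sets. Probe sets of this class can read more than 1 transcript.

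Among the 45 members with several probe sets, 8 had probe sets with separate pools in opposite directions: Dnaja1, Dnajb6, Dnajc6, Dnajc11, Dnajc14, Dnajc17, Hspa9 and Hspb7. The matching share over all genes with several probe sets was not counted, so whether 8 is many or few cannot be told. Dnajc14 had probe sets at -0.20, 0.20 and -0.11, and Dnajb6 at 0.02, -0.15, 0.22 and -0.02. In Dnajc6, Dnajc11 and Hspb7 the probe sets that disagreed included some near the Bacillus value. Over all 169 probe sets, 52 had both threat pools higher and 30 both lower, where the shares over all probe sets were 23.9% and 19.4%. Which transcripts these probe sets read was not analysed here.

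**Figure D5:**
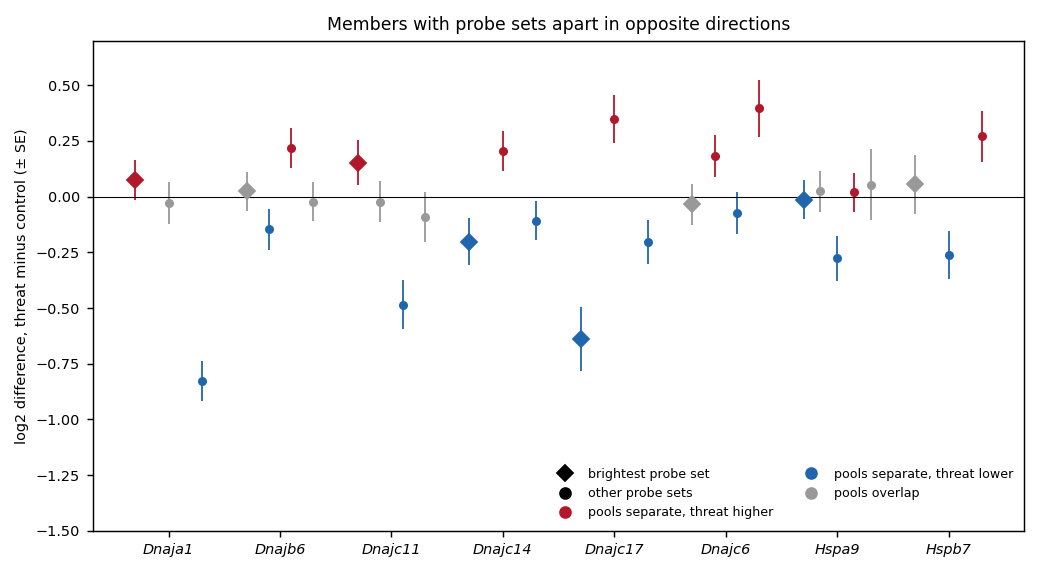
Log2 difference, threat minus control, of every probe set of the 8 members with probe sets apart in opposite directions, with standard errors. Diamonds are the brightest probe set of a gene and circles the others, ordered from bright to dim, with red for both threat pools higher, blue for both lower and grey for overlap. Dnaja1 spans from -0.83 to 0.07 and Dnajc17 from -0.64 to 0.35.

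Several members known mainly from testis were dim here. In 4 of the 70 members (Hspa1l, Hspb9, Dnajb7 and Dnajc5g) all pools lay at or below the Bacillus value. Dnajb13, a J protein of ciliary and flagellar axonemes, measured 4.00 and 4.09 in threat, under the Bacillus value, and 4.47 and 4.48 in control, so that it was at least 1.17-fold lower in threat (fitted difference -0.43 ± 0.09, adjusted p = 0.415). The choroid plexus and ependyma genes, of which Tmem212 and Ccdc153 belong to ciliated cells, had a mean level of 4.92 and 4.94 in the threat pools and 5.86 and 5.20 in the control pools. Of these 7 genes 4 had both threat pools lower, against 18.8% of all genes. Aqp1 was at or below the Bacillus value in all pools. The part of these genes in the value of Dnajb13 was not tested. Dnajb8, known from testis, measured 5.18 and 4.92 in threat and 5.72 and 5.31 in control (-0.46 ± 0.17). Its unadjusted p was not under 0.05 without threat pool 1, where the difference was -0.59, threat pool 2 (-0.34) or control pool 1 (-0.26). Dnajc5b, a testis relative of Dnajc5, was the 1 member higher at an unadjusted p under 0.05, at 5.28 and 5.27 in threat and 4.95 and 5.10 in control (0.25 ± 0.10). It was not past that p without threat pool 1, where the difference was 0.25, threat pool 2 (0.26) or control pool 1 (0.18).

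Partners and regulators of these families were read from lists of genes outside the naming rule. Of 4 measured genes of heat shock factors and their regulation, none was past an unadjusted p of 0.05. Hsf1 itself was not among the genes measured here. Hsf5 lay below the Bacillus value in all pools, and Hsf2 was above it in threat pool 1 alone (4.31). Hsbp1, which binds heat shock factor 1, was at 0.15 with separate pools, and Hsf4 at -0.05. Of 15 cofactors of Hsp70, Bag4 was higher at an unadjusted p under 0.05, with 10.41 and 10.45 in threat and 10.13 and 10.17 in control (0.28 ± 0.09, adjusted p = 0.446). Sil1 (0.15), the exchange factor of Hspa5, and Bag6 (0.14) also had both threat pools higher. Of the 15, 4 (26.7%) had both higher and none both lower, where the shares over all genes were 26.2% and 18.8%.

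None of 14 co-chaperones of Hsp90 was past that p. The kinase adaptor Cdc37 was at 0.15, Tomm34 at 0.06 and Cdc37l1 at 0.06, each with both threat pools higher, while Sugt1 (-0.07) and the glucocorticoid-induced immunophilin Fkbp5 (-0.03) had both lower. Fkbp5 measured 8.36 in both threat pools and 8.39 and 8.40 in control. All 3 measured J proteins outside the naming rule had both threat pools higher, with Sec63 of the translocon at 0.21, the auxilin relative Gak at 0.20 and Hscb at 0.09. Of 14 genes of the cytosolic chaperonin TRiC and its feeder prefoldin none was past that p. Tcp1 (0.13), Pfdn6 (0.12) and Cct7 (0.07) had both threat pools higher, and Cct6a (-0.11) and Pfdn1 (-0.10) both lower. Among all genes, 26.2% had both threat pools higher and 18.8% both lower.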

How the data were processed

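Total RNA of prefrontal cortex was measured on 4 arrays, 2 of threat and 2 of control pools of 5 mice. The values deposited by the authors are log2 expression per probe set. RMA is named per the submitters' processing notes. The sources used here give neither its version nor its settings. The table held 45101 probe sets. The 64 control probe sets were left out, leaving 45037. The platform annotation gave the symbols (34945 probe sets with 1 symbol, 932 with several and 9160 unnamed here), and all 70 members matched a table of mouse genes (GRCm38.p6). Hsp90ab1 was not analysed here, and 3 probe sets shared by Dnajc19 and another gene were left out.

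Threat was compared with control in limma 3.58.1 (R 4.3.3; lmFit and eBayes, 2-sided, Benjamini-Hochberg over all probe sets, 2 residual degrees of freedom), tested on simulated data. The median standard error of a member's difference was 0.103, and the number of arrays limits precision. The labels do not say whether pools came from separate cages, so p-values refer to the spread between these pools only. In eBayes the variance of each probe set is drawn towards a value shared by all probe sets. Standard errors and p-values therefore do not follow the spread of a gene's own pools alone. Dnajb9, with a standard deviation of 0.017 in threat and 0.006 in control, had a standard error of 0.09. Pools are separate where the lowest pool of a group exceeds the highest of the other. Dim means at or below 4.25, the highest of 27 Bacillus probe sets.

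Named were the heat-inducible list, the 2 brightest genes per family, the 10 largest differences per direction with separate pools above the Bacillus value, every member past an unadjusted p of 0.05, members with opposed probe sets, and up to 3 genes per direction of each pathway list. Other members were named after their values were seen. Members and lists were chosen with earlier results of these data known. Alternatives were the pool number as a block, each pool left out, cyclic loess, median centring, an intensity trend, other choices of probe set, a filter on dim members and a 1.2-fold threshold.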

Additional observations from a re-analysis of the deposited data

How the results depend on the processing

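With the pool number as a block, cyclic loess, median centring or an intensity trend, 0 probe sets had an adjusted p under 0.05 in limma. That count was not made with the mean of all probe sets. The counts of members lower at an unadjusted p under 0.05 (6) and with separate pools (21 higher, 13 lower) stayed within 1.5 times under every alternative with all 4 pools, and leaving out 1 pool gave 4 to 6, 26 to 34 and 19 to 25, where fewer pools have to be apart. The single member higher at an unadjusted p under 0.05 became 2 with median centring and with the mean of all probe sets, and 0 with an intensity trend and among members above the median level, and 0 to 2 without 1 pool. The single member at least 1.5-fold apart became 2 with cyclic loess, 0 with the mean of all probe sets, 8 at 1.2-fold and 2 without any 1 pool. Family medians are small, and scaling moved several across 0. With cyclic loess they were -0.054 for Hsp70, -0.0059 for Dnaja, -0.0082 for Dnajb and 0.0058 for Dnajc. With median centring they were 0.023 for Hsp70, 0.0197 for the chaperonins, 0.059 for Dnajb and 0.1045 for Dnajc, where the median of all genes was 0.06. The Hsp70 median was 0.0575 with the mean of all probe sets and -0.0498 among members above the median level, and that of the chaperonins 0.0327 without probe sets ending in _x_at or _s_at. Without 1 pool the medians ran from -0.0224 to 0.0546 for Hsp70, 0.0603 to 0.1388 for Hsp110, -0.2624 to -0.1683 for Hsp90, -0.0471 to 0.0148 for the chaperonins, -0.0753 to 0.0325 for the small heat shock proteins, 0.003 to 0.0717 for Dnaja, -0.0403 to 0.03 for Dnajb and 0.0388 to 0.1238 for Dnajc. The cause of these moves was not tested. The groups share pool numbers, which the labels do not explain, and deviations of equal numbers correlated at 0.33 across probe sets. With the pool number as a replicate block, 8 members were lower and 1 higher at an unadjusted p under 0.05, Hspa1b (-0.55) and Hspb1 (-0.48) being the 2 added. Under the other alternatives with all 4 pools, Dnajc3 was not past that p with median centring or the mean of all probe sets, and Dnajc17 not with the mean of all probe sets. Dnaja1 (-0.26), Dnajc16 and Hspa5 passed it with the mean of all probe sets, Dnajc14 and Hspa1b with cyclic loess, and Dnajc28 with median centring. The median standard error of 0.103 limits what 2 pools a group can tell apart.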
